A study of Mus musculus with 12 samples.

Results

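The genes described are 10 genes of the interleukin-6 (IL-6) and STAT3 pathway, of the C/EBP transcription factors and of the acute phase response of glia. They were Il6st and Osmr (receptor chains), Stat3 (a transcription factor), Socs3 (its feedback inhibitor), Cebpb and Cebpd (C/EBP factors), and Lcn2, Serpina3n, Cp and Steap4 (acute phase and metal-handling proteins). They were chosen by name, with every probe whose RefSeq identifier belongs to one of them. This gave 12 probes for the 10 genes, of 20887 named genes on the array. A probe counted as expressed when at least 1 condition had it well above background in 3 or more of 4 samples, which held for 11 of the 12 probes and for all 10 genes, of 14330 named genes with an expressed probe.

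Differentiated neurospheres, which are cultures that neural progenitor cells form, were compared on 2-color arrays with 4 arrays for each of 3 comparisons. All came from the telencephalon of C57BL/6 embryos at day 13. WT neurospheres were wild type and untreated. APP_WT, BK_APP and HOE_APP neurospheres all carried the APPswe and PS1dE9 transgenes, which include a mutant mouse and human chimera of APP and were made to be active in neurons of the central nervous system. APP_WT neurospheres were untreated, BK_APP neurospheres received 1 µM bradykinin (BK, the peptide that activates the B2 kinin receptor) and HOE_APP neurospheres 1 µM HOE-140 (an antagonist of that receptor), each on days 0, 3 and 6 of 7 days of differentiation. There was no treated WT group, so each treatment was measured on the transgenic background alone. On the HOE_APP arrays both channels are labelled with the treatment. The direction used for that comparison therefore rests on the label of the first channel, the titles and the dye layout, and is likely only. The ratios that the authors deposited for these arrays run in the same direction.

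IL-6 and its relatives signal through gp130, the chain that Il6st encodes, together with a partner such as the oncostatin M receptor that Osmr encodes. JAK kinases on these receptors then activate STAT3, which moves to the nucleus and induces its own inhibitor Socs3 and, together with C/EBP-beta and C/EBP-delta, the secreted proteins of the acute phase. In the brain this program is known from reactive astrocytes, which raise Lcn2 and Serpina3n after injury or inflammation.

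All 10 genes rose in APP_WT over WT at an adjusted limma p below 0.05, whereas 17% of all named genes were called higher and 8.04% lower. Each was above 0 on all 4 arrays, as were 20.9% of all named genes. None was called in BK_APP, in HOE_APP or between these groups, where no probe of the array was called. Their median log2 fold change was 0.69 in APP_WT, against 0.01 over all named genes. By array it was 0.50, 0.66, 0.68 and 0.89, so each replicate showed the shift. The median was 0.11 in BK_APP and −0.17 in HOE_APP, with a median of 0.00 over all named genes in both. Without replicate 3 the median in BK_APP was 0.04, and without replicate 4 that in HOE_APP was −0.09. The plot of the log2 ratios by array shows each of these values.

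**Figure D1:**
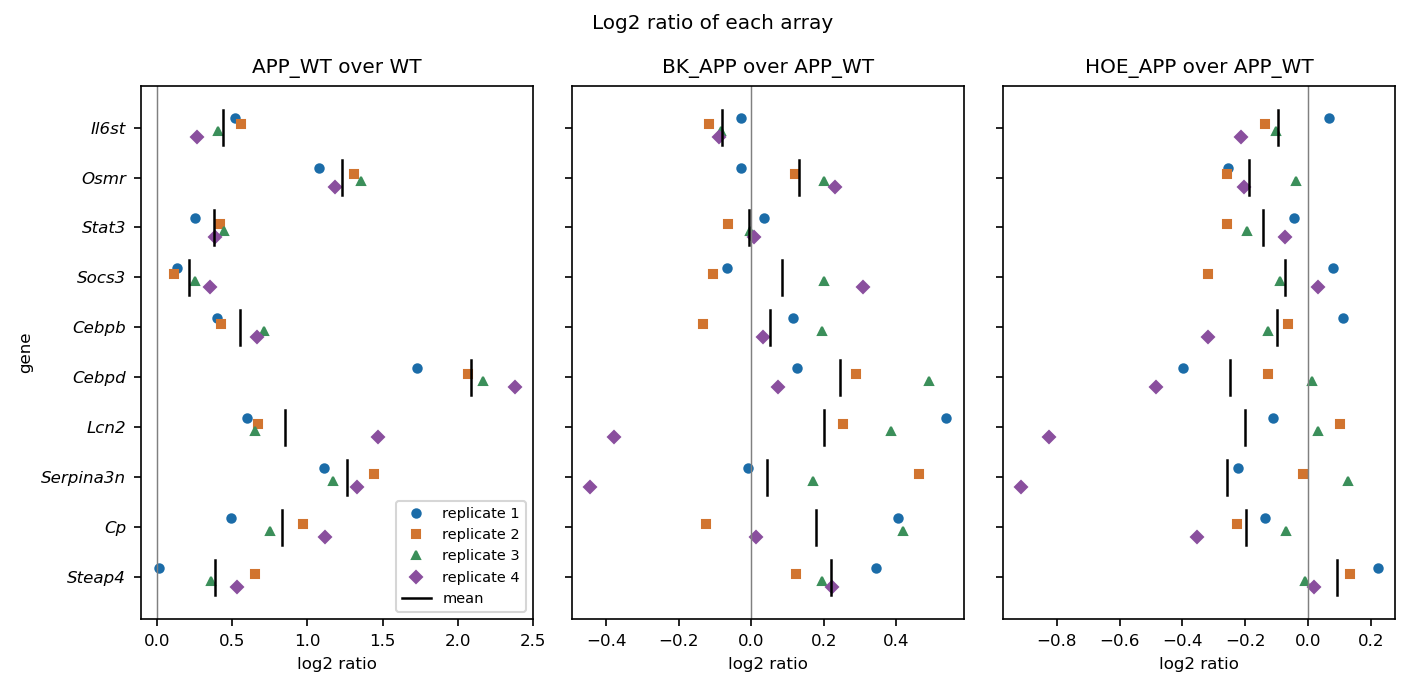
Log2 ratio of each array (x axis) for the brightest probe of each of the 10 genes (y axis) in 3 comparisons of 4 arrays. Symbols mark replicates 1 to 4 and the black line is their mean; the panels have different x ranges, and the direction of HOE_APP is likely only. In APP_WT over WT every value lies above 0, while in the treated comparisons most genes have arrays on both sides of 0.

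Promoter sequence was at hand for 9 of the 10 genes (10 start sites, RefSeq, build GRCm38.p6), and none for Cebpd. The 250 bases before each start were searched on both strands for a STAT motif (TTCNNNGAA, which reads the same on the other strand) and a C/EBP motif (TTGCNNAA, or TTNNGCAA on the other strand). A match of letters is not a bound site, and the array data do not bear on binding. The STAT motif was found before Socs3 and Steap4, and in 7.02% of all 32851 start sites in the table. The C/EBP motif was found before Lcn2, Cp and Steap4, and in 9.56% of all start sites. For Cp this held for the downstream start site and not for the upstream start site. Steap4 held both motifs, without overlap, as did 0.74% of all start sites. The windows of Cebpb, Stat3, Il6st, Osmr and Serpina3n held neither. The 4 windows with a match are shown 5′ to 3′ on the strand of the gene, because they are the members whose upstream sequence holds letters of the factors described, with the motifs in capitals. The matches began 154 bases before the start of Socs3, 216 before that of Lcn2, 70 before that of Cp, and 116 (STAT) and 87 (C/EBP) before that of Steap4.
Socs3, chr11:117969367-117969616, minus strand: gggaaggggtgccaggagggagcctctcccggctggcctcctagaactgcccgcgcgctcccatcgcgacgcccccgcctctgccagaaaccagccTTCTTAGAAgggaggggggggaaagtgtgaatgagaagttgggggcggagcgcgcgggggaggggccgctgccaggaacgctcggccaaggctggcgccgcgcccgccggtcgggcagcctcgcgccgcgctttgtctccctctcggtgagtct
Lcn2, chr2:32387740-32387989, minus strand: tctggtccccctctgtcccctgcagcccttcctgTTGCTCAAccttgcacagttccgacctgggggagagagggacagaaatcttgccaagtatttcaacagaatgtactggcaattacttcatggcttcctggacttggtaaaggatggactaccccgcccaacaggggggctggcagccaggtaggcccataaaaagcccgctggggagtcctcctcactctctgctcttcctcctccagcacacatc
Cp, chr3:19956999-19957248, plus strand: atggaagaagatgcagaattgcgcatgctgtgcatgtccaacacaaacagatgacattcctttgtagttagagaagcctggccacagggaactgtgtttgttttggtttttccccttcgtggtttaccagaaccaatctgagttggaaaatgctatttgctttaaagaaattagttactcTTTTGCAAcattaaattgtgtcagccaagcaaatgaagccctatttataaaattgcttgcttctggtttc
Steap4, chr5:7960222-7960471, plus strand: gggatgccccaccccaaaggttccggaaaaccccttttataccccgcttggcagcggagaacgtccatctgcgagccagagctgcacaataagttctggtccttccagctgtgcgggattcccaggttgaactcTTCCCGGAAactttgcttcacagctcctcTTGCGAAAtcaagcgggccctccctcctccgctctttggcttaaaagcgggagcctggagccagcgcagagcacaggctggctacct

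The first question was how the transgenic neurospheres differed from WT. The receptor chains were higher in APP_WT on every array. Osmr had log2 ratios of 1.08, 1.31, 1.35 and 1.18 on replicates 1 to 4, and its log2 intensity rose from 9.16 ± 0.17 in WT to 10.39 ± 0.07 in APP_WT (SD, n = 4). The levels of both groups did not overlap, and the change was 2.35-fold (log2 fold change 1.23, SE 0.057, adjusted p = 2.84e-07). Il6st rose from a log2 intensity of 11.44 ± 0.07 to 11.87 ± 0.19 (SD, n = 4). Its log2 ratios were 0.52, 0.56, 0.40 and 0.27, a 1.35-fold increase (log2 fold change 0.44, SE 0.052, adjusted p = 0.000217), also without overlap. Stat3, the factor that these receptors activate, was measured by a probe printed 10 times on each array and by a dimmer second probe. The first had log2 ratios of 0.25, 0.42, 0.44 and 0.39, a 1.30-fold increase without overlap (log2 fold change 0.38, SE 0.054, adjusted p = 0.000726). The second had log2 ratios of 0.10, 1.16, 0.35 and 0.31 (log2 fold change 0.48, adjusted p = 0.0259). Without replicate 2 its log2 fold change was 0.22, with an adjusted p of 0.0905. Socs3, the feedback inhibitor, changed least of the 10, with log2 ratios of 0.14, 0.12, 0.25 and 0.35. Its log2 intensities were 9.02 ± 0.13 in WT and 9.23 ± 0.14 in APP_WT (SD, n = 4), which overlapped, and its log2 fold change of 0.21 (SE 0.064) passed narrowly (adjusted p = 0.0407). Socs3 lost its call in 16 of 20 alternative settings, with an adjusted p of 0.0179 to 0.275 over all of them and of 0.104, 0.107, 0.0834 and 0.154 without replicates 1, 2, 3 and 4 of APP_WT over WT in turn.

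Among the C/EBP factors, Cebpd rose most of all 10 genes. Its log2 intensity was 11.28, 10.86, 10.57 and 10.79 in WT and 13.01, 12.93, 12.74 and 13.17 in APP_WT. The lowest APP_WT sample thus lay above the highest WT sample by more than the range of either group. The increase was 4.25-fold (log2 fold change 2.09, SE 0.099, adjusted p = 3.14e-07), place 27 among the 14330 named genes by log2 fold change. Cebpb, a relative that binds the same sequences, had log2 ratios of 0.40, 0.42, 0.71 and 0.66, with log2 intensities of 9.64 ± 0.20 in WT and 10.19 ± 0.14 in APP_WT (SD, n = 4). It rose 1.46-fold without overlap of the levels (log2 fold change 0.55, SE 0.060, adjusted p = 0.00012).

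The acute phase and metal-handling genes were also higher on all 4 arrays. Serpina3n, which encodes a secreted inhibitor of serine proteases, had log2 ratios of 1.11, 1.44, 1.17 and 1.33 and rose 2.40-fold without overlap (log2 fold change 1.26, SE 0.15, adjusted p = 0.000254). It belongs to a cluster of closely related genes, so its probe may also read relatives. Lcn2, a lipocalin that binds the iron carriers of bacteria, had log2 ratios of 0.60, 0.67, 0.65 and 1.47. Its log2 intensities were 7.42, 7.25, 7.34 and 7.79 in WT and 8.02, 7.92, 7.99 and 9.26 in APP_WT, so the highest sample of each group was replicate 4. Its change of 1.80-fold (log2 fold change 0.85, SE 0.16, adjusted p = 0.0045) rested in part on replicate 4, without which the log2 fold change was 0.65 (adjusted p = 0.0426), and the levels did not overlap. Cp, the copper-carrying ferroxidase ceruloplasmin, had log2 ratios of 0.49, 0.97, 0.75 and 1.12 on its brighter probe. It rose 1.78-fold without overlap (log2 fold change 0.83, SE 0.11, adjusted p = 0.000438), although only 1 of 4 WT samples stood well above background. With processed signals without loess its log2 fold change was 1.81 and 1.80 with the deposited table. Its second probe was not expressed, so it had no test, and its log2 ratios were −0.10, 0.07, 0.34 and 0.53. Steap4, a reductase of iron and copper, was the dimmest gene relative to background. It was well above background in 2 of 4 APP_WT samples and in none of the WT samples, and its log2 ratios were 0.01, 0.65, 0.36 and 0.53. Its levels overlapped, and the change was at least 1.19-fold (log2 fold change as fitted 0.39, adjusted p = 0.0108). Without replicate 4 the adjusted p of Steap4 was 0.0706, and with processed signals its log2 fold change was 0.86 (adjusted p = 0.135). In all, the levels of 8 of the 10 genes did not overlap between APP_WT and WT, against 10.4% of all named genes in this direction.

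**Figure D2:**
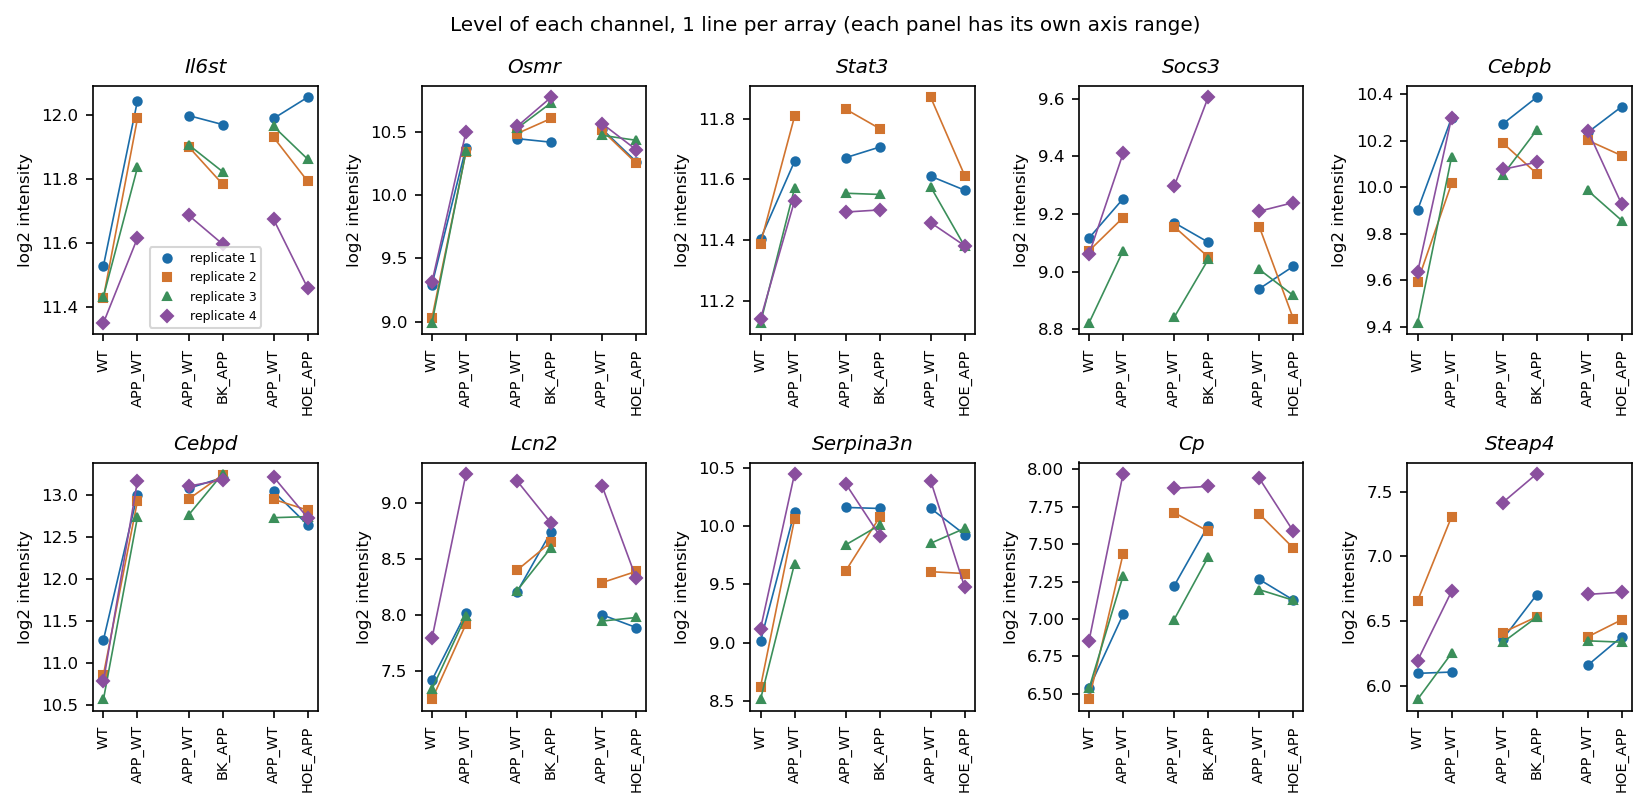
Log2 intensity of each channel (y axis, 1 panel per gene with its own range) in the conditions that shared an array (x axis). Each line joins the 2 channels of an array, with a symbol per replicate. The WT points lie below the APP_WT points on every array, and APP_WT replicate 4 is the highest APP_WT sample for Lcn2, Serpina3n and Cp on all 3 arrays that carry it.

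Each replicate number of APP_WT appeared on 3 arrays, once beside WT, once beside BK_APP and once beside HOE_APP. For Cebpd the levels of one number differed by at most 0.11, while the means of the 4 numbers spanned 0.42. For Stat3 (brighter probe) these values were 0.07 and 0.34. Lcn2 was highest in replicate 4, with log2 intensities of 9.26 beside WT, 9.20 beside BK_APP and 9.15 beside HOE_APP, while the other APP_WT samples lay between 7.92 and 8.40. Serpina3n was likewise highest in replicate 4, with 10.45, 10.37 and 10.39. The high level of this APP_WT sample entered the ratios of all 3 comparisons. For Osmr, Cebpb, Steap4 and the second Stat3 probe the levels within a number ranged more widely (up to 0.18, 0.22, 0.93 and 0.87) than the means of the numbers (0.09, 0.21, 0.74 and 0.49). On the HOE_APP arrays the channel taken as APP_WT lay closer than the other channel to the APP_WT samples of the same number elsewhere in 26 of 40 cases (10 genes, 4 numbers). In 14 cases the other channel lay closer. The cases come from only 4 arrays, and the count was not made over all named genes. For Cebpd the channel taken as APP_WT read 13.04 in replicate 1 and 13.22 in replicate 4, where the other channel read 12.65 and 12.73 and the APP_WT samples elsewhere 13.01 and 13.08, and 13.17 and 13.11. In replicate 3 both channels read near them, 12.73 and 12.74 beside 12.74 and 12.76. For Lcn2 in replicate 4 the other channel read 8.33. The direction was not set from these values.

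The RNA came from whole cultures, in which more or fewer cells of a type and more or less RNA per cell cannot be told apart. Markers of several cell types moved in the same comparison, in which 17% of all named genes were called higher and 8.04% lower. Of 13 expressed microglia markers 11 were higher in APP_WT (median log2 fold change 1.39). These were led by Cx3cr1 (the fractalkine receptor, log2 fold change 2.31), Tyrobp (an adaptor of activating receptors, 2.22) and Aif1 (Iba-1, 2.21), while Sall1 was lower (−0.30). Summed over the list, the intensity was 10477 to 12669 in WT and 14542 to 18557 in APP_WT. P2ry12 stood above background in 1 APP_WT sample of this comparison and in no other sample of any comparison. Of 12 astrocyte markers 8 were higher (median 0.28), with Gjb6 at 0.79, Mlc1 at 0.75 and Aqp4 at 0.73, and the summed intensity was 111780 to 149240 in WT and 167820 to 181280 in APP_WT. Of 9 expressed choroid plexus and ependymal markers 8 were higher (median 1.15), led by Ccdc153, Dynlrb2 and Rsph1 (1.84, 1.59 and 1.55), with sums of 6399 to 7360 in WT and 11952 to 17484 in APP_WT. The part of these cell types in the change of the 10 genes was not tested. Neurons were present in both genotypes, with all 12 markers expressed (median log2 fold change 0.06). Of these 4 were higher, among them Slc17a7 and Syt1 at 0.58 and 0.43, and 2 lower, Dcx and Map2 at −0.54 and −0.31. Lcn2 is also a product of neutrophils. Of 10 neutrophil markers Elane, Camp and Csf3r were above background on all 4 arrays in both groups, with Camp higher (0.20), and Mpo, Ltf, Ngp, Cxcr2 and Mmp9 in no APP_WT or WT sample of this comparison. The summed intensity of the list was 25659 to 29196 in WT and 22878 to 38460 in APP_WT, so the ranges overlapped, and its part in the level of Lcn2 was not tested. Of 10 oligodendrocyte lineage markers 1 was higher and 1 lower, of 5 expressed endothelial and pericyte markers 1 and 1, and of 8 expressed fibroblast and meningeal markers 3 were lower and none higher. APP_WT and WT shared 1 slide and the 8 treated arrays another, so slide and contrast cannot be told apart, although both samples of a ratio lay on 1 array. Median signals were 63 to 94.5 in the green and 89.5 to 117.5 in the red channel, and up to 59.4% of probes were well above background on an array. The mouse App probe had a log2 fold change of 0.12 (adjusted p = 0.0925), and it does not check the transgenes.

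The ligands that act on these receptors were mostly dim. Of 10 cytokines of the gp130 family 7 had an expressed probe, of which 3 were higher in APP_WT and 1 lower. Over all named genes 17% were called higher and 8.04% lower. Il6 itself stood above background on 1 of 4 arrays in each of APP_WT and WT and on none in the treated comparisons. Lif was above background on 1 of 4 arrays in APP_WT and on none in WT, and Osm, the ligand of the Osmr product, on no array of any condition. Cntf, a cytokine of astrocytes and Schwann cells, rose most, with log2 ratios of 1.06, 0.95, 0.97 and 1.19 (log2 fold change 1.04, SE 0.071, adjusted p = 3.84e-06). Clcf1 and Ctf1 rose by 0.37 and 0.27 on the log2 scale. Of the other receptors Il6ra, the IL-6-binding chain, rose by 0.69 and Il11ra1 by 0.30, whereas Cntfr (−0.15, adjusted p = 0.197) and Lifr (−0.09, adjusted p = 0.447) did not pass.

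Downstream of the receptors genes went both ways, as did all named genes (17% called higher and 8.04% lower). Among the JAK kinases and other STAT factors 2 of 6 expressed genes were higher and 1 was lower, with Jak3 at 0.29 and Jak2 at −0.21. Jak1, a kinase that binds gp130, did not pass (0.03, adjusted p = 0.783). Of 13 expressed inhibitors (SOCS, PIAS and phosphatases) Socs1 and Ptpn2 were higher (0.28 and 0.16) and Cish and Socs2, which respond mainly to STAT5, were lower (−0.41 and −0.30). Of 5 other expressed C/EBP factors none was higher, and Nfil3 and Cebpz were lower (−0.28 and −0.21). Of 17 expressed genes known from textbooks as STAT3 targets 6 were higher and 2 lower, with a median of 0.09. Bcl3, a nuclear partner of NF-kB, was at least 2.42-fold higher (adjusted p = 0.000146), since no WT sample stood above background. Tnfrsf1a, a receptor of TNF, and Ccnd1, a cyclin of the G1 phase, rose by 0.77 each, and Hif1a, the hypoxia factor, fell by 0.28 on the log2 scale. These small counts depended on the setting, and over 20 alternatives 1 to 4 cytokines, 0 to 3 JAK and STAT factors, 1 to 5 inhibitors, 0 to 2 other C/EBP factors and 5 to 9 STAT3 targets were called.

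The secreted and reactive genes moved more, beside the same 17% of all named genes called higher and 8.04% lower. Of 14 other acute phase genes with an expressed probe 12 were higher and none lower, with a median log2 fold change of 0.62 (32 genes were listed, and 18 had no expressed probe). The complement component C3 had log2 fold change 4.17 (SE 0.14, adjusted p = 5.42e-08) and C4b 1.54 (SE 0.062). Saa3, a serum amyloid A, was at least 3.22-fold higher (adjusted p = 9.88e-05). All 8 other genes known as pan-reactive in astrocytes were higher, with a median of 0.76, among them the chemokine Cxcl10 (4.50), the sphingosine receptor S1pr3 (1.37) and the filament protein Vim (0.97). Of 16 expressed genes of iron and copper handling 4 were higher and 3 lower (median 0.01). Fth1, the ferritin heavy chain, rose by 0.52, and Steap3 and Steap1, relatives of Steap4, by 0.36 and 0.29. Aco1 and Tfrc, an iron sensor and the transferrin receptor, were at −0.38 and −0.20, and over the alternatives 2 to 8 genes of the list were called. Of the Serpina3 cluster only Serpina3b and Serpina3h had an expressed probe besides Serpina3n, and their log2 fold changes were −0.06 and −0.05, neither called.

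**Figure D3:**
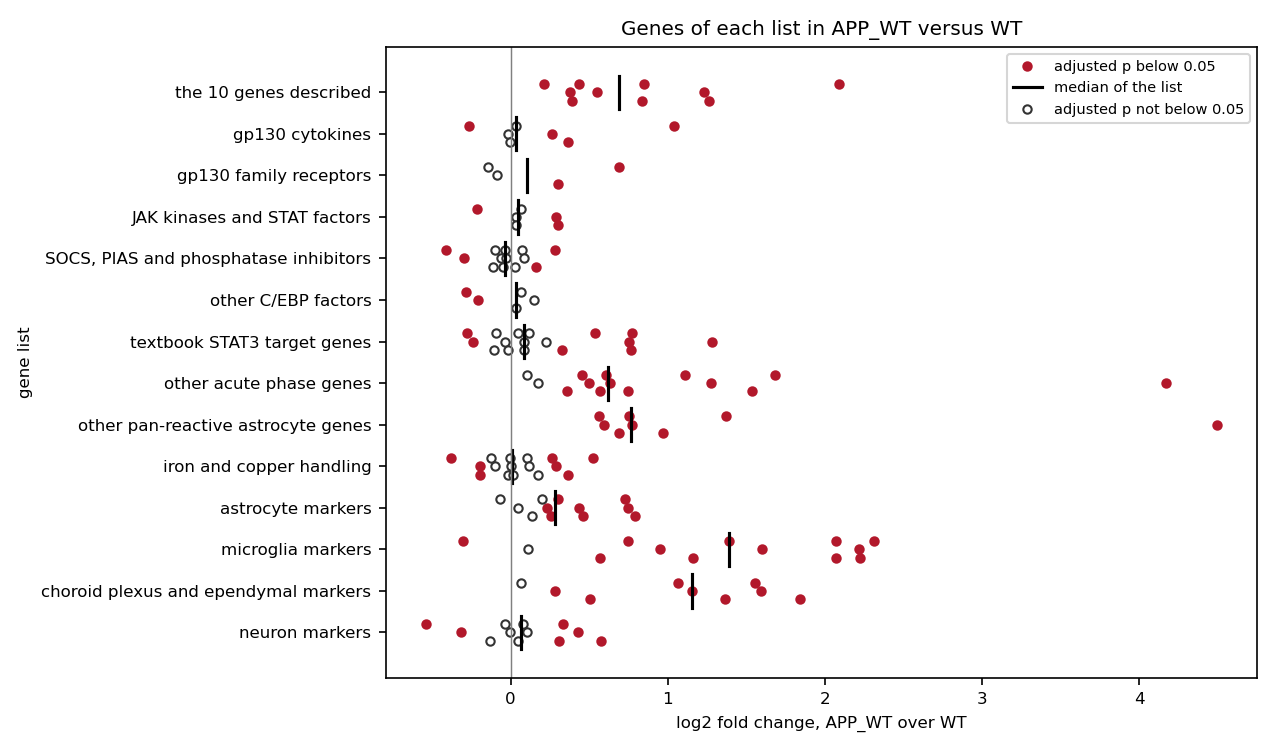
Log2 fold change in APP_WT over WT (x axis) of every expressed gene of each list (y axis), with filled points for an adjusted limma p below 0.05 and a black line at the median of the list. The 10 genes described, the other acute phase genes and the pan-reactive genes lie almost wholly above 0, with C3 at 4.17 and Cxcl10 at 4.50 farthest out, and so do the microglia and the choroid plexus and ependymal markers. The lists of JAK and STAT factors, inhibitors and other C/EBP factors spread around 0.

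The next question was whether BK moved these genes beyond their level in untreated APP_WT neurospheres. No gene was called (smallest adjusted p over the array 0.967), and 8 of the 10 had a log2 fold change above 0, against 50.5% of all named genes. Cebpd had log2 ratios of 0.13, 0.29, 0.49 and 0.07, with a log2 fold change of 0.25 (95% confidence interval, without adjustment over genes, 0.03 to 0.46). Its BK_APP samples lay between 13.18 and 13.25 and its APP_WT samples between 12.76 and 13.11, so the levels did not overlap, the only such case among the 10 (0.766% of all named genes did so in this direction). On the HOE_APP arrays APP_WT replicate 4 read 13.22. Without replicate 3 the log2 fold change of Cebpd in BK_APP was 0.14. Steap4 had log2 ratios of 0.34, 0.12, 0.19 and 0.22 (log2 fold change 0.22, interval 0.03 to 0.41) and was above background in 3 of 4 BK_APP and 1 of 4 APP_WT samples. It passed the expression filter only through these BK_APP samples. Its higher level in BK_APP, also within the count of 8, is therefore not independent of the filter. Both genes were higher on all 4 arrays, which 5.8% of all named genes were. Osmr had log2 ratios of −0.03, 0.12, 0.20 and 0.23 (log2 fold change 0.13, interval 0.003 to 0.26). These 3 intervals left out 0, as at an unadjusted p below 0.05, where 2.63% of all named genes were higher. For the other genes the interval of the log2 fold change held 0. It reached from −0.16 to 0.56 for Lcn2, from −0.07 to 0.42 for Cp and from −0.30 to 0.39 for Serpina3n, so that changes of that size were not detectable with 4 arrays. Cp had log2 ratios of 0.40, −0.13, 0.42 and 0.01, Socs3 of −0.07, −0.11, 0.20 and 0.31, and Cebpb of 0.11, −0.13, 0.19 and 0.03. None of these kept 1 sign, and without replicate 1 the log2 fold change of Cp was 0.05. By array 6, 5, 8 and 7 of the 10 genes were above 0. Il6st was below 0 on all 4 arrays, as were 4.55% of all named genes, with a log2 fold change of −0.08 (interval −0.20 to 0.03), and Stat3 was at −0.01 (interval −0.13 to 0.11).

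Lcn2 lay between 8.60 and 8.82 in BK_APP and between 8.21 and 9.20 in APP_WT of the same arrays. Its log2 ratios of 0.54, 0.25 and 0.38 on replicates 1 to 3 stood beside −0.38 on replicate 4, where APP_WT was highest. The same array gave the lowest log2 ratio of Serpina3n, −0.45, while replicate 2 gave 0.46. Without replicate 4 the log2 fold change of Lcn2 was 0.39, without replicate 3 it was 0.01, and neither passed. The SD of Lcn2 was also lower in HOE_APP than in APP_WT of those arrays (0.25 and 0.56). In BK_APP the SD was lower than in APP_WT for 5 of the 10 genes and higher for the other 5, among them Osmr (0.16 and 0.04) and Socs3 (0.27 and 0.19). Spread was not tested.

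HOE-140, given at the same dose on the same days, went with log2 fold changes below 0 for 9 of the 10 genes, against 47.3% of all named genes. Again none was called (adjusted p between 0.924 and 0.942 for these genes), and the direction of this comparison is likely only. Osmr had log2 ratios of −0.26, −0.26, −0.04 and −0.21, with a log2 fold change of −0.19 (interval −0.32 to −0.06). Its HOE_APP levels, 10.25 to 10.43, lay below those of APP_WT on the same arrays, 10.47 to 10.56, without overlap. Such a separation in this direction held for 0.308% of all named genes. Beside WT, APP_WT replicates 1 to 3 read 10.37, 10.34 and 10.35 for Osmr, within the HOE_APP range, and replicate 4 lay above it. Beside BK_APP all APP_WT samples, 10.44 to 10.54, lay above that range. Cebpd had log2 ratios of −0.40, −0.13, 0.01 and −0.48 (log2 fold change −0.25, interval −0.47 to −0.03, and −0.12 without replicate 4) and Stat3 of −0.05, −0.26, −0.20 and −0.08 (−0.14, interval −0.26 to −0.02). By their brightest probes Stat3, Osmr and Cp were below 0 on all 4 arrays, which 4.22% of all named genes were. At an unadjusted p below 0.05, 2.42% of all named genes were lower, as Osmr, Cebpd and Stat3 were. The second Stat3 probe had log2 ratios of −0.21, −0.14, −0.05 and 0.01 (log2 fold change −0.09, interval −0.38 to 0.19). On its brighter probe Cp had log2 ratios of −0.14, −0.23, −0.07 and −0.35 (log2 fold change −0.20, interval −0.44 to 0.05). Its second probe, which was not expressed and had no test, had log2 ratios of 0.27, −0.03, −0.04 and −0.46. By array 4, 2, 3 and 2 of the 10 genes were above 0. Serpina3n and Lcn2 had their lowest log2 ratios on replicate 4, −0.91 and −0.82. Without that array their log2 fold changes were 0.0036 and 0.013, in place of −0.26 and −0.20. Il6st, Cebpb and Socs3 were at −0.10, −0.10 and −0.08, with intervals that held 0 and arrays on both sides of it. Steap4 was the one gene above 0 (0.09, interval −0.10 to 0.28). With each array centered on its median in place of loess, 4 of the 10 genes were above 0 and the median of the 10 was −0.04, while the median of all probes was 0.08.

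**Figure D4:**
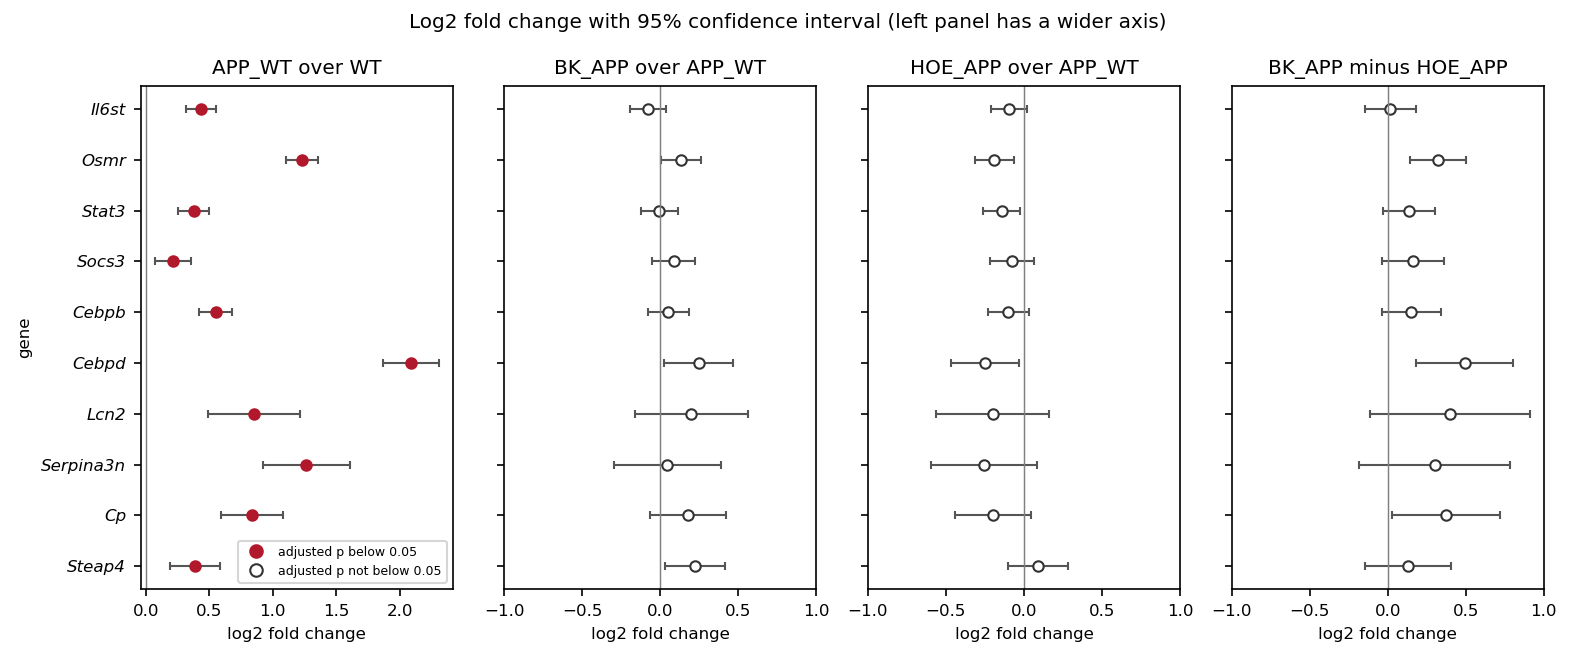
Log2 fold change (x axis) with its 95% confidence interval for the 10 genes (y axis) in 4 contrasts of the model over 12 arrays. Red points have an adjusted limma p below 0.05 and white points do not; the left panel has a wider range, and the signs of HOE_APP rest on a likely direction. All 10 points are red in APP_WT over WT and all are white in the other panels, where Cebpd, Osmr and Cp lie to the right of 0 with their intervals in BK_APP minus HOE_APP.

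The agonist and the antagonist were also set against each other, in BK_APP minus HOE_APP, where APP_WT cancels. All 10 genes had a difference above 0, against 47.9% of all named genes, with a median log2 difference of 0.23, and none was called (adjusted p of 1 for each). Cebpd had the greatest difference, 0.49 (interval 0.18 to 0.80), and in pairs of the same replicate number it was 0.52, 0.42, 0.48 and 0.56. These 4 values lay close together, with an SD of 0.062, although the ratios to APP_WT had spread much more. The intervals in this contrast come from the fit that does not use the pairing by number. With the replicate number as a block the SE of Cebpd was 0.10 in place of 0.14, with an adjusted limma p of 0.474. Osmr differed by 0.32 (interval 0.14 to 0.50), with 0.23, 0.38, 0.24 and 0.44 in the pairs. Cp differed by 0.37 (interval 0.03 to 0.72), Lcn2 by 0.40 (interval −0.11 to 0.91) and Serpina3n by 0.30 (interval −0.18 to 0.78). Lcn2 was higher in BK_APP in every pair, with 0.65, 0.15, 0.35 and 0.44. By their brightest probes these 5 genes and Stat3 were higher in all 4 pairs, 6 of the 10 against 9.52% of all named genes. The second probe of Stat3 gave 0.25, −0.01, 0.19 and −0.20 in the pairs, and that of Cp, which was not expressed, −0.13, 0.02, 0.27 and 0.44. For Il6st the difference was 0.02 (interval −0.15 to 0.18). For Steap4, which passed the expression filter only through BK_APP, it was 0.13 (interval −0.14 to 0.40). At an unadjusted p below 0.05, 1.59% of all named genes were higher in BK_APP, among them Cebpd, Osmr and Cp. If the sign of HOE_APP were turned, 2 of the 10 genes would lie above 0, the median would be −0.03 and 1 gene would be higher in all 4 pairs (4.89% of all named genes).

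Other genes of the pathway did not pass either in the treated comparisons, and 0 genes were called in any list. For some of the lists the gene with the smallest unadjusted p is given here with its log2 fold change. Such genes of the lists left out ran both ways, for example Mag (−0.28) and Cish (0.17) in HOE_APP. In BK_APP minus HOE_APP examples were Pias4 (−0.23) and Col1a2 (0.33). In HOE_APP the pan-reactive genes were led by Cd44, a receptor of hyaluronan (−0.26, SE 0.058), which was below 0 on all 4 arrays. The acute phase genes were led by C3 (−0.56, SE 0.14) and the gp130 cytokines by Cntf (−0.21, SE 0.071), both also below 0 on all 4 arrays. In BK_APP these lists were led by Gfap (−0.20, SE 0.074), the metallothionein Mt1 (−0.18, SE 0.055) and Ctf1 (0.15, SE 0.067), of which Mt1 had arrays on both sides of 0. In BK_APP minus HOE_APP they were led by Cxcl10 (0.58, SE 0.16), C3 (0.80, SE 0.20) and Cntf (0.22, SE 0.10), and Bcl3 led the STAT3 targets (0.63, SE 0.20). Among microglia markers the leading genes were Tyrobp in BK_APP (0.32, SE 0.096), and Cx3cr1 in HOE_APP (−0.18, SE 0.068) and in BK_APP minus HOE_APP (0.35, SE 0.096). Of the 13 expressed microglia markers 11 were above 0 in BK_APP (median 0.15) and none in HOE_APP (median −0.07). Of all named genes 50.5% and 52.7% were above 0 in these comparisons. Of 12 astrocyte markers 3 were above 0 in BK_APP (median −0.04) and 1 in HOE_APP (median −0.08). In BK_APP minus HOE_APP all 13 microglia markers were above 0 (median 0.19) and 8 of 12 astrocyte markers (median 0.06), against 47.9% of all named genes. All 12 neuron markers were below 0 there (median −0.11), and all 12 were also below 0 in BK_APP (median −0.12). The summed intensity of the microglia list was 15518 to 17375 in BK_APP and 11991 to 16061 in HOE_APP, so the ranges overlapped, and its part in the differences of the 10 genes was not tested.

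SAM and rank products, the tests named in the methods of the study, were also run, with a gene called when both gave an unadjusted p of at most 0.05. By these Cebpd and Steap4 were called higher in BK_APP (1.29% of all named genes), and Cebpd, Osmr and Cp lower in HOE_APP (0.868%). Steap4 had passed the expression filter only through its BK_APP samples, so its call there is not independent of the filter. In APP_WT 9 of the 10 genes were called, all but Socs3, against 9.08% of all named genes called higher. With the replicate number as a block, 10 of 10 genes were called in APP_WT and none elsewhere, as without it, while calls over all probes in APP_WT rose from 5449 (18.6%) to 8265 (28.1%).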

How the data were processed

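Two-color Agilent mouse arrays were used, 12 in all, with dyes swapped between replicates 1 and 2 and replicates 3 and 4. The authors extracted the spot intensities with Feature Extraction (version 11.0.1.1 per the file headers, which name array design build mm9). Per the file headers, the scanner files also hold a log10 ratio of red over green processed signals. This ratio served to check and orient the deposited value table, and entered no fit. The deposited value table holds log2 ratios that the authors derived from the processed signals, with a correlation of at least 0.9986 in size with the scanner values, and with medians of −0.155 to 0.036. These ratios served as an alternative.

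Median signals and backgrounds were corrected with normexp (offset 50) and normalized by loess within each array (span 0.3). Of 62976 spots 3671 were controls and were removed, and repeated spots were averaged to 55681 probes, of which 29361 passed the expression filter (461 of them with a missing value, for which the fit dropped that array). Probes took gene symbols from a RefSeq table (GRCm38.p6, names only), which matched 27509 of 29150 RefSeq identifiers, and a gene was represented by its brightest probe. Array values have no counting error, and the number of arrays limits the precision.

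All 12 arrays were fitted in 1 limma model (limma 3.58.1, R 4.3.3) with 6 coefficients (an effect and a dye term for each of 3 comparisons), 6 residual and 4.56 prior degrees of freedom. The p-values were two-sided and adjusted by Benjamini-Hochberg over all expressed probes, with a threshold of 0.05. A bound ("at least") was given where 1 condition was not well above background on any array and the other was on all 4. It compares means, with dim values raised to the lowest signal well above background, and is not a confidence limit. SAM and rank products used 100 permutations for the latter. The fit was tested on simulated data. Other settings were processed signals without loess, median centring, other filters, the deposited table, separate fits, each slide alone, a replicate block, a turned sign for HOE_APP, and each array left out.

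The 4 replicates are independent biological replicates according to the study. Deviations of same-numbered BK_APP and HOE_APP arrays correlated at 0.52 to 0.67, each best with its own number, and at 0.42 to 0.43 once the dye effect was removed. Both ratios have the APP_WT sample of that number in the denominator, which by itself makes them correlate. The block was used on this basis. Those of APP_WT over WT correlated at −0.30 to −0.60 with the treated arrays, where APP_WT is in the denominator. The members, the gene lists and the tests were chosen with earlier results of these data known. All members are described. From the other lists the called genes of greatest change with all arrays in 1 direction were picked in APP_WT over WT. In the treated comparisons the gene of smallest unadjusted p was picked. Not all genes picked in this way are named here. Camp, Elane, Csf3r, Jak1, Cntfr, Lifr, Serpina3b and Serpina3h were named after their values were seen. Some items of the lists are not reported here by name. Sequences are RefSeq promoters. Probe sequences were not used here, so reads of related genes by 1 probe were not tested.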

Additional observations from a re-analysis of the deposited data

Results flagged for a closer look

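In APP_WT over WT the log2 ratio of Lcn2 on replicate 4 was 1.47, apart from the other arrays, which lay between 0.60 and 0.67. Its gap to the nearest array was 0.916 of the whole range, above the Dixon limit for 4 samples. This was 1 of 36 groups of 4 log2 ratios (12 probes in 3 comparisons), and chance alone singles out about 1 such group in 20. The APP_WT sample of that number was also the highest for Lcn2 on the BK_APP and HOE_APP arrays, at log2 intensities of 9.20 and 9.15.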

How the results depend on the processing

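In APP_WT over WT 8 to 10 of the 10 genes were called over 21 alternatives, 8 to 10 with 1 array left out, and no direction turned. The calls lost were those of Socs3 (16 of 20 alternatives), Steap4 and the second Stat3 probe, and Steap4 had an adjusted p of 0.135 with processed signals, 0.0933 with separate fits, 0.0969 with each slide alone and 0.0706 without replicate 4. The second Stat3 probe lost its call in 8 of 20 alternatives. In the deposited table and under the stricter filter 9 genes were present. The 5449 calls over all probes became 1847 with separate fits, 2372 with each slide alone and 2732 with SAM and rank products, and 8265 with the replicate block. That block followed the pairing of the numbers and changed no call of the 10 genes. In the treated comparisons their lowest adjusted p with it was 0.217, in HOE_APP. SAM and rank products called 2 of the 10 genes in BK_APP and 3 in HOE_APP, against 0 by limma. The log2 fold change of Lcn2 in APP_WT was 0.65 without replicate 4. The median of the 10 genes in APP_WT was 0.96 with processed signals and 1.05 in the deposited table, in place of 0.69.

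Signs turned in several settings. With median centring Stat3 was at 0.076 and Il6st at 0.0029 in BK_APP, Cebpb at 0.016, Socs3 at 0.010 and Il6st at 0.039 in HOE_APP, and Il6st at −0.036 in BK_APP minus HOE_APP. The median of all probes with median centring was 0.076 in HOE_APP. With the sign of HOE_APP turned, the BK_APP minus HOE_APP difference was −0.049 for Cebpb, −0.0037 for Cebpd, −0.15 for Stat3, −0.13 for its second probe, −0.18 for Il6st, −0.059 for Osmr, −0.0023 for Lcn2, −0.21 for Serpina3n and −0.021 for Cp. That setting changes the sign by construction, also for the greatest differences of the main fit, 0.49 for Cebpd and 0.40 for Lcn2. With 1 array left out the values ran from −0.0099 to 0.11 for Cebpb, −0.031 to 0.018 for Stat3, −0.12 to 0.043 for its second probe and −0.11 to 0.20 for Serpina3n in BK_APP. In HOE_APP they ran from −0.17 to 0.024 for Socs3, −0.41 to 0.013 for Lcn2 and −0.52 to 0.0036 for Serpina3n. In BK_APP minus HOE_APP they ran from −0.025 to 0.14 for the second Stat3 probe and −0.034 to 0.068 for Il6st. Apart from the turned sign, the cause of these shifts was not tested. Over all probes, calls in BK_APP rose from 0 to 62 without replicate 1, and in HOE_APP from 0 to 9 without replicate 4. Steap4, Cp (in WT) and Il6 lie near background, which limits their folds.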
